A study of Mus musculus with 672 samples.

Results

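All-lymphoid progenitors (ALPs) are bone marrow cells that carry the IL-7 receptor but not yet Ly6D, the surface protein that marks the B-biased step after them. The cells described here are the ALPs sorted from control mice: IL-7Ra+ and Ly6D- within a Flt3hi, c-Kit+ and Sca-1+ gate that excluded Lin+ and B220+ cells. A well was kept with at least 50000 counts on nuclear genes, at least 1000 nuclear genes read, at most 20% mitochondrial counts and at most 50% counts on the added spike-in RNA. This left 114 of 168 sorted control ALPs, of 561 kept cells in the whole series. Of mouse 18218, 74 of 84 wells were kept, and of mouse 18220, 40 of 84.

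The control mice were 7 weeks old, of strain C57BL6/129Ola and labelled Mbd3flox/flox, that is with floxed and not deleted Mbd3. The labels name no Cre and no sex. The comparison populations came from the same 2 mice: 94 lymphoid-primed multipotent progenitors (LMPPs), which share the gate but lack the IL-7 receptor, and 69 B-biased lymphoid progenitors (BLPs), which carry both the receptor and Ly6D. Mbd3del/del mice of the same age and strain entered the fit, where they help to estimate the spread, and gave the genes of an axis described at the end. The replicate is the mouse, so each group has n = 2. The p-values of the fit measure the spread between the summed counts of mice of a group. That spread also holds the sampling and uneven depth of cells, whose part was not separated. Its common coefficient of variation was 86.9%, and 47.0% with cells drawn down to equal counts and fewer genes tested.

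Lymphoid progenitors switch on the machinery that rearranges antigen receptor genes before they settle on one fate. In the B lineage, Ebf1 and then Pax5 install the B cell programme, while Notch signals and Tcf7 and Gata3 open the T lineage, and Id2 and Zbtb16 mark innate lymphoid precursors. Cells with an IL-7 receptor can also give rise to plasmacytoid dendritic cells, which carry Siglech and Cox6a2 and share some lymphoid transcripts.

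The kept ALPs held a median of 1601929 nuclear gene counts and 8353 genes, with totals from 58286 to 4767953 counts. The deepest well left out held 386933 counts and failed another limit, and 50 of the 54 wells left out were more than 50% spike-in. Depth was similar in the 2 mice, at median counts of 1586214.5 in mouse 18218 and 1702258.5 in mouse 18220. Fewer genes were read in mouse 18220, at a median of 7356 against 8675 in mouse 18218. With cells drawn down to 50000 counts the medians were 4209 and 4978 genes. Summed over cells, the 2 ALP libraries held 122514230 and 72338775 gene counts. Levels below are counts per 1000000 (CPM) of these sums, or reads per cell after each cell was drawn down to 50000 nuclear gene counts. Reads were not marked by molecule, so amplified copies count as separate reads.

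The 6 marker transcripts Il7r, Flt3, Dntt, Blnk, Cox6a2 and Notch1 were each read in most ALPs of both mice. Dntt, which encodes the terminal transferase that adds bases at antigen receptor joins, was read in all 114 cells, with medians of 452 reads in mouse 18218 and 352.5 in mouse 18220. Its lowest and highest cells held 3 and 983 reads in mouse 18218 and 1 and 871 in mouse 18220. Per kilobase of transcript model Dntt was second of all protein-coding nuclear genes in the ALPs, at 3805 CPM per kb, below B2m, the light chain of class I molecules, at 6226, and above Actb at 3135. Others among the highest 10 were Plac8, Rpl4, Rplp1, Rpl8, Sh3bgrl3 and Gpx1, at 1107 to 1824 CPM per kb.

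Flt3, the receptor of the gate, was read in 74 of 74 and 39 of 40 cells, with medians of 52.5 and 43.5 reads. Il7r, the receptor chain that separates ALPs from LMPPs, was read in 73 and 38 cells, with medians of 32 and 38. Reads of Il7r, Flt3 and Dntt were found together in 110 of 114 cells. Blnk, which links the B cell receptor to its downstream enzymes, was read in 60 and 33 cells (medians 12 and 23.5), so about as many cells lacked it in each mouse by share. Cox6a2, a mitochondrial subunit read in plasmacytoid dendritic cells, was found in 67 and 36 cells (medians 13 and 25). Notch1, the receptor of T lineage signals, was found in 69 and 34 cells (medians 8 and 9).

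**Figure D1:**
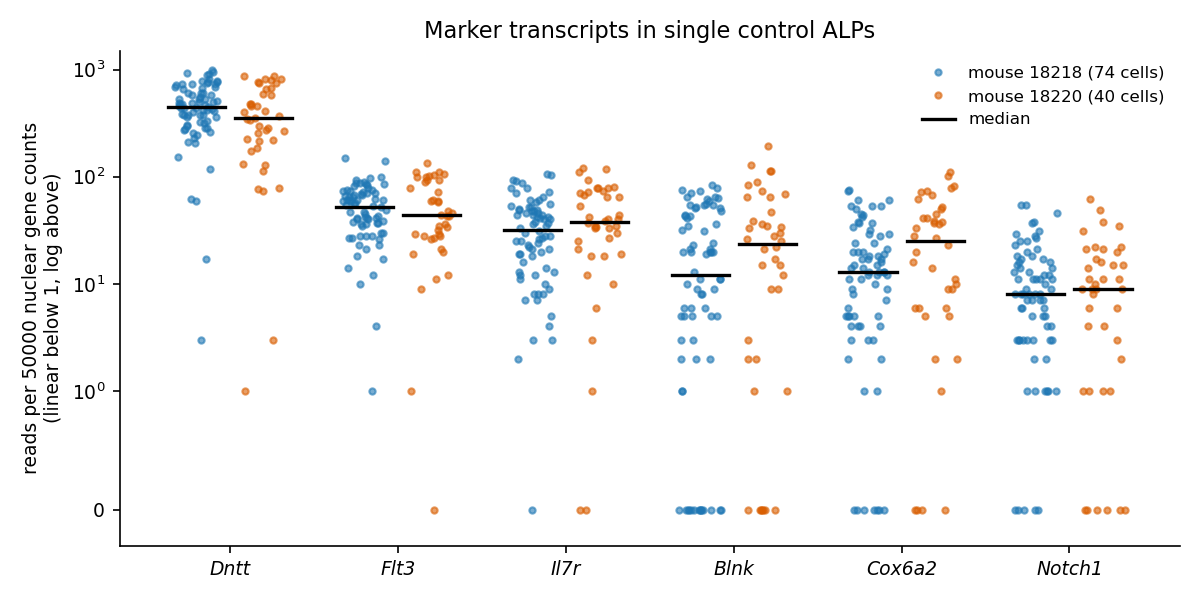
Reads of the 6 markers in each control ALP, per 50000 nuclear gene counts (axis linear below 1 and logarithmic above). Points are cells of mouse 18218 (blue, 74 cells) and mouse 18220 (orange, 40 cells), and bars are medians. Dntt lies above the other markers in nearly all cells, while Blnk and Cox6a2 spread from 0 to 193 and 111 reads.

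The gate genes Kit, Ly6a and Ly6d were each read in only part of the ALPs. Kit, the stem cell factor receptor, was read in 42 of 74 and 24 of 40 ALPs, and its level was 61.9 and 137 CPM against 406 and 503 CPM in LMPPs. Ly6a, which encodes Sca-1, was read in 28 and 11 cells, at 88.1 and 62.2 CPM. Ly6d was read in 26 and 19 cells although the sort excluded its protein, at 40.1 and 133 CPM, where BLPs held 2793 and 3749 CPM. These 3 are genes of the gate, so their levels are not independent of the sort. LMPPs share the c-Kit and Sca-1 gate with ALPs, and the difference in Kit between them was not called.

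Against LMPPs of the same mice, the ALPs held more of the shared lymphoid transcripts Dntt, Rag1 and Ighm, of the early B transcripts Ebf1 and Blnk and of the dendritic transcripts Cox6a2 and Pld4, besides the gate genes Il7r and Ly6d. They held less of the stem cell transcripts Lmo2, Hlf and Procr. Of 19903 genes tested, 54 passed an adjusted p of 0.05 (0.271%) by edgeR's quasi-likelihood test with Benjamini-Hochberg adjustment, 35 higher in ALPs (0.176%) and 19 lower (0.0955%). At an unadjusted p under 0.05 there were 1745 genes (8.77%). DESeq2 called 920. With the mouse as a block there were 32 calls, 24 of them shared with the 54, and with the control libraries alone 7. Without mouse 18218 the count was 1, the gate gene Il7r (edgeR adjusted p = 0.0469), and without mouse 18220 it was 0, each with 1 library left per control group.

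Among 12 lymphoid genes that B and T lineages share, 11 had fitted changes above 0 and 4 were called, all higher. The median change was 1.24 on the log2 scale, beside 0 over all genes. Il7r stood at 622 and 874 CPM in ALPs against 26.7 and 14.5 CPM in LMPPs, which restates the gate. Dntt stood at 9223 and 8218 CPM in ALPs, 2692 and 1517 CPM in LMPPs and 5319 and 4789 CPM in BLPs. Both ALP libraries lay above both LMPP libraries, a log2 difference of 2.05 ± 0.27 (SE; edgeR's quasi-likelihood test, adjusted p = 0.0216). They also lay above both BLP libraries, by 0.79 ± 0.26, a difference that did not pass the same edgeR test (adjusted p = 0.573).

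Rag1, a subunit of the recombinase that cuts antigen receptor genes, stood at 46.1 and 24.2 CPM in ALPs against 2.02 and 3.78 CPM in LMPPs. The change was 3.60 ± 0.47 (SE; edgeR adjusted p = 0.0216, and 0.0654 with the mouse as a block). Rag1 was read in 26 of 74 and 12 of 40 ALPs. Its partner Rag2 stood at 222 and 142 CPM, against 39.8 and 27.7 CPM in LMPPs, and did not pass (edgeR adjusted p = 0.0904). Ighm, which encodes the mu heavy chain constant region and is transcribed before rearrangement, was higher by 1.22 ± 0.13 (SE; edgeR adjusted p = 0.0137, and 0.0575 with the mouse as a block). Its levels were 2290 and 2889 CPM in ALPs and 1224 and 1005 CPM in LMPPs, and 113 of 114 ALPs held at least 5 reads of it.

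Ebf1, the transcription factor that opens the B programme (chr11:44617317-45008091, mm10, plus strand), rose from 1.01 and 0.724 CPM in LMPPs to 24.7 and 19.9 CPM in ALPs. BLPs held 267 and 227 CPM, so the 3 populations did not overlap. The ALP level was higher than that of LMPPs by 4.69 ± 0.28 (SE; edgeR adjusted p = 0.000791) and lower than that of BLPs by a log2 change of -3.47 ± 0.26 (SE; edgeR adjusted p = 0.0107). Both calls held with the mouse as a block (edgeR adjusted p of 0.00543 and 0.0275), and neither held without mouse 18218 or without mouse 18220. After drawing down, 25 of 74 (33.8%) and 8 of 40 (20.0%) ALPs had a read of Ebf1, with maxima of 16 and 31. Shares were 6.38% and 2.13% in LMPPs and 76.5% and 68.6% in BLPs. Before drawing down, the median ALP held 2 reads of Ebf1 in each mouse, so a cell without a drawn read need not lack them.

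Blnk was the other large early B change, at 478 and 640 CPM in ALPs against 23.9 and 15.1 CPM in LMPPs. It was higher by 4.84 ± 0.55 (SE; edgeR adjusted p = 0.0154, and 0.0655 with the mouse as a block). Among 22 early B genes tested, 14 had changes above 0 against LMPPs, with a median of 1.43, and 3 were called higher: Ebf1, Blnk and the gate gene Ly6d (4.39 ± 0.66, edgeR adjusted p = 0.0435, and 0.118 with the mouse as a block). Blk, a kinase of the B lineage, stood at 111 and 72.0 CPM against 0.768 and 0.449 CPM in LMPPs and did not pass (edgeR adjusted p = 0.0542).

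Genes that act after Ebf1 were low in ALPs beside BLPs, and none of their differences was called. Pax5, which fixes B identity, stood at 0.267 and 1.51 CPM in ALPs and at 43.1 and 36.4 CPM in BLPs, and 2 of 114 ALPs had a read of it. Cd79a, a signalling chain of the B cell receptor, stood at 15.1 and 0.941 CPM in ALPs, 1.27 and 1.18 CPM in LMPPs and 363 and 419 CPM in BLPs. The mice differed here: 14 ALPs of mouse 18218 but 2 of mouse 18220 had a read, with maxima of 49 and 1. Vpreb3, a B precursor gene, stood at 2.39 and 0.291 CPM against 204 and 271 CPM in BLPs.

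Against BLPs, 1 of 19903 genes passed (0.00502%), and it was Ebf1, lower in ALPs. At an unadjusted p under 0.05 there were 1493 genes (7.50%), and DESeq2 called 595. Leaving out either control mouse left 0 calls, with 1559 genes at an unadjusted p under 0.05 without mouse 18218 and 798 without mouse 18220. All 22 early B genes tested had fitted changes below 0 against BLPs, with a median of -2.85 beside 0.003 over all genes, but 21 of them did not pass. The ALP libraries enter both comparisons, so these lists are not independent of those against LMPPs.

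Among T lineage and Notch genes, Hes1, Tcf7 and Gata3 were read in few ALPs and Notch1, Lat and Lck in many. Hes1, a direct target of Notch receptors, was the one called member of 21 tested, at 17.3 and 7.49 CPM in ALPs, 0.126 and 0.297 CPM in LMPPs and 67.3 and 82.7 CPM in BLPs. It was higher than in LMPPs by 5.84 ± 0.78 (SE; edgeR adjusted p = 0.0247, and 0.0737 with the mouse as a block). Its reads lay in 11 of 74 and 3 of 40 ALPs, and in 0 of 94 LMPPs. With cells taken as independent draws, 0 of 94 allows a share of up to 3.19%, a limit that leaves out the spread between mice. In the list as a whole, 18 genes had changes above 0 against LMPPs, with a median of 3.37. Without 2 cells of mouse 18220 described below, 15 of the 20 genes then tested did, with a median of 1.32, and Hes1 was still the called one.

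Tcf7, the first T lineage factor (chr11:52252371-52283014, mm10, minus strand), stood at 34.5 and 27.8 CPM in ALPs. LMPPs held 0.0526 and 0.0145 CPM and BLPs 0.992 and 0.0286 CPM. The difference from LMPPs did not pass (edgeR adjusted p = 0.436), and the reads lay in 2 of 74 and 4 of 40 cells. The 2 cells of mouse 18218 held 84 and 7 reads. In mouse 18220 Tcf7 was at 20.6 CPM without the 2 cells described below. Gata3 stood at 14.4 and 23.2 CPM in ALPs (13 and 9 cells), near 22.9 and 17.4 CPM in LMPPs and above 3.48 and 1.15 CPM in BLPs, a difference that was not called. Ptcra, the partner of the first T receptor chain, had no read among the drawn-down ALPs. Lat and Lck, signalling genes of T cells, were read widely, Lck at 261 and 335 CPM in ALPs, 151 and 171 CPM in LMPPs and 219 and 331 CPM in BLPs.

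Natural killer and innate lymphoid genes showed 1 call among 17 tested, Itga4, an integrin chain that is not limited to these cells. Itga4 was at 334 and 401 CPM in ALPs against 119 and 89.8 CPM in LMPPs, higher by 1.81 ± 0.21 (SE; edgeR adjusted p = 0.0171, and 0.0572 with the mouse as a block). In this list 12 of 17 genes had changes above 0, with a median of 1.83. Id2, which blocks B and T factors in innate cells, stood at 41.2 and 43.0 CPM and was not called. In mouse 18220 Id2 was at 18.0 CPM without the 2 cells described below. Zbtb16, the factor of innate lymphoid precursors, stood at 0.881 CPM in mouse 18218 and 38.3 CPM in mouse 18220, and at 19.6 CPM there without the 2 cells described below.

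The dendritic list held the largest called increase among the lists. Cox6a2 (chr7:128205435-128206387, mm10, minus strand) stood at 264 and 600 CPM in ALPs against 4.17 and 3.63 CPM in LMPPs, higher by 6.79 ± 0.59 (SE; edgeR adjusted p = 0.00376). BLPs held 419 and 775 CPM, a range that overlaps that of ALPs. Pld4, a nuclease of the endosome in plasmacytoid dendritic cells, was at 76.1 and 143 CPM against 8.14 and 7.92 CPM in LMPPs, higher by 3.77 ± 0.49 (SE; edgeR adjusted p = 0.0216, and 0.0524 with the mouse as a block). Cox6a2 held with the block, at an edgeR adjusted p of 0.0243.

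Other members of the dendritic list were above LMPPs in both mice without passing. Siglech, a receptor of plasmacytoid dendritic cells (chr7:55768178-55778925, mm10, plus strand), stood at 124 and 202 CPM against 0.821 and 4.88 CPM in LMPPs (edgeR adjusted p = 0.0966). Irf8, a factor that dendritic cells need, stood at 776 and 1315 CPM against 152 and 117 CPM (edgeR adjusted p = 0.247), and Ly86 at 229 and 393 CPM against 9.04 and 11.0 CPM (edgeR adjusted p = 0.0720). Of 22 dendritic genes tested, 15 had changes above 0 against LMPPs, with a median of 0.73, and 3 against BLPs, with a median of -0.40. Cox6a2 and Pld4 were thus called while Tcf4, the factor that defines plasmacytoid dendritic cells, was at 227 and 257 CPM in ALPs and 254 and 177 CPM in LMPPs.

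Of 22 stem cell and multipotency genes tested, 21 had changes below 0 against LMPPs, with a median of -1.51, and 3 were called: Lmo2, Hlf and Procr. Lmo2, a factor of blood stem cells, was at 141 and 132 CPM against 878 and 830 CPM in LMPPs, lower by a log2 change of -2.64 ± 0.20 (SE; edgeR adjusted p = 0.00214, and 0.0235 with the mouse as a block). Hlf was at 22.7 and 9.77 CPM against 196 and 213 CPM (edgeR adjusted p = 0.0167, and 0.0661 with the block). Procr, a receptor on stem cells, was at 0.0646 and 0.0277 CPM against 33.1 and 21.3 CPM (edgeR adjusted p = 0.0216, and 0.0741 with the block). Cd34 stood at 839 and 626 CPM against 1552 and 1685 CPM and did not pass (edgeR adjusted p = 0.387).

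All 13 myeloid genes tested had changes below 0, with a median of -1.82, yet edgeR called 0, and 4 were below 0 at an unadjusted p under 0.05. Csf3r, the receptor for the granulocyte factor, was at 10.9 and 9.70 CPM against 182 and 112 CPM in LMPPs. Mpo, the peroxidase of early granulocytes, was close to LMPPs, at 421 and 182 CPM against 498 and 385 CPM (edgeR adjusted p = 0.785), and was read in 63 of 74 and 26 of 40 ALPs. Elane, the elastase of the same granules, had no read in either ALP library. Of 14 erythroid and megakaryocyte genes, Car2 was called lower, at 146 and 73.9 CPM against 1513 and 1163 CPM (edgeR adjusted p = 0.0240, and 0.0601 with the block).

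Outside the lists, the genes with the largest called changes higher in ALPs were Gfra1, Epha2, Slc37a2, Colq and Stum, at 12.2 to 69.4 CPM in ALPs and under 0.5 CPM in LMPPs. Colq, which anchors acetylcholinesterase, stood at 39.9 and 32.0 CPM in ALPs, 0.263 and 0.224 CPM in LMPPs and 120 and 148 CPM in BLPs, higher than in LMPPs by 7.20 ± 0.34 (SE; edgeR adjusted p = 0.00021). Gfra1, a receptor for neurotrophic factors, and Slc37a2, a sugar phosphate exchanger, passed without the mouse block but not with it (edgeR adjusted p of 0.0575 and 0.141). Epha2, an ephrin receptor, and Stum passed both ways (edgeR adjusted p with the block of 0.0381 and 0.0292).

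The largest called changes lower in ALPs were Gas6, Muc13, Ifitm1, Wfdc17 and Akr1c13 beside Procr, Hlf and Car2. Gas6, a ligand of TAM receptors, was at 0.0566 and 0.0692 CPM in ALPs and at 34.4 and 32.3 CPM in LMPPs. Muc13, a surface mucin, was at 0.606 and 0.761 CPM against 153 and 124 CPM, and Wfdc17 at 47.1 and 44.1 CPM against 672 and 738 CPM. With the mouse as a block, Gas6 and Ifitm1 passed (edgeR adjusted p of 0.0269 and 0.0107), while Muc13, Wfdc17 and Akr1c13 did not (0.0716, 0.0741 and 0.0741).

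**Figure D2:**
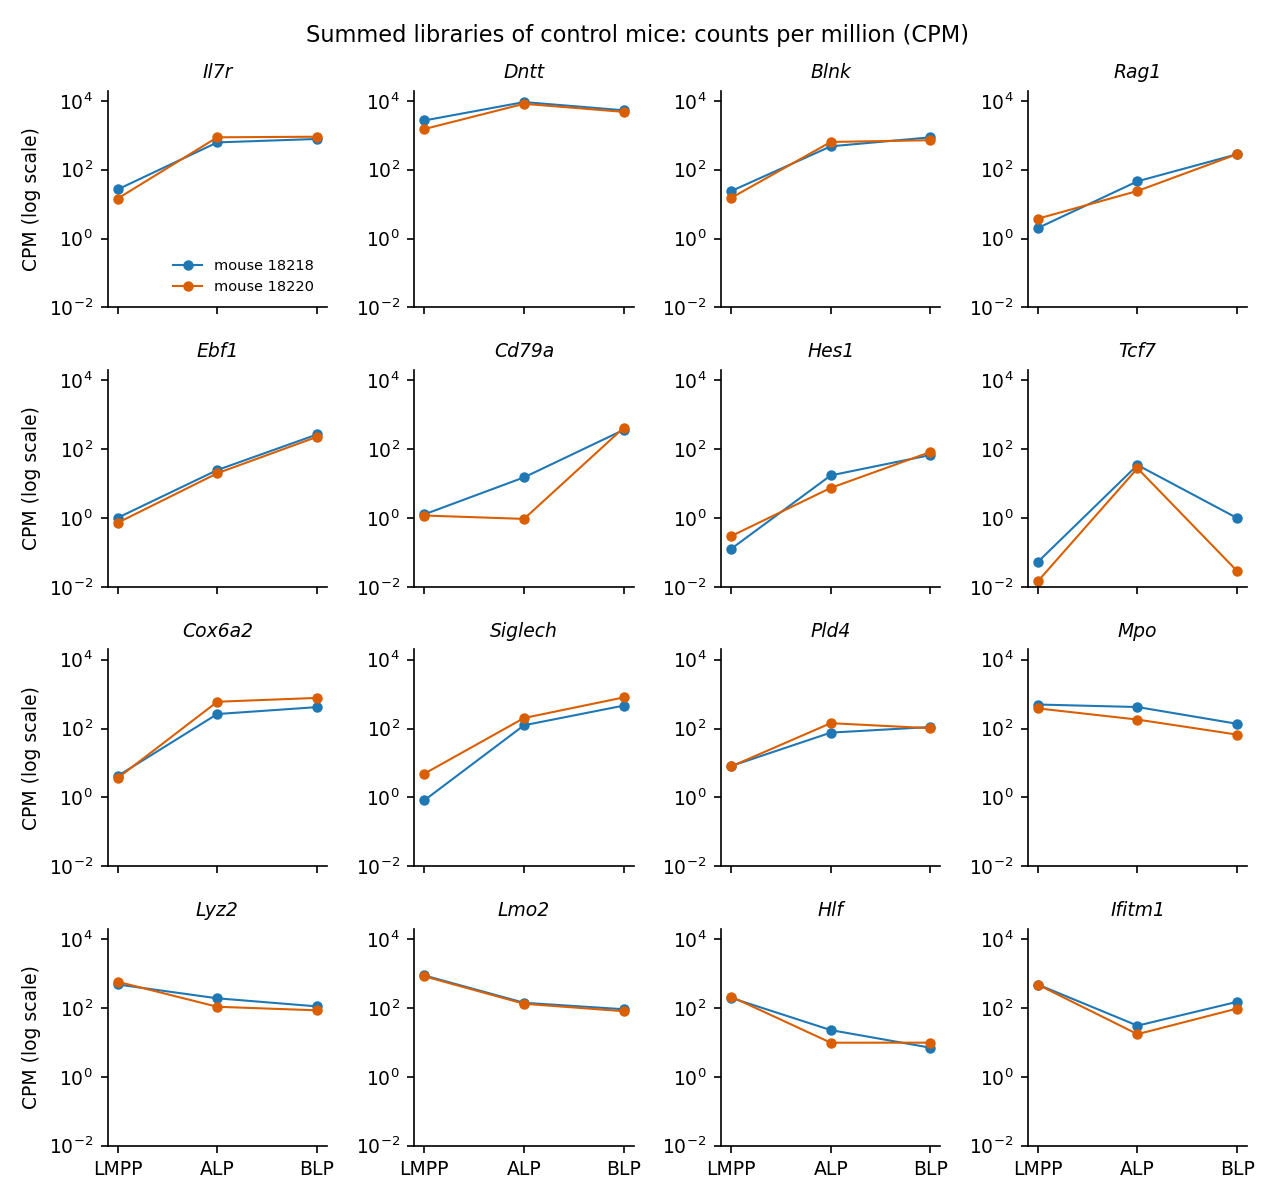
Level of 16 genes in the summed control libraries of LMPPs, ALPs and BLPs, in CPM on a log axis, with 1 line per mouse. Ebf1 rises over all 3 populations, from 1.01 and 0.724 to 267 and 227 CPM, while Cox6a2 is at 264 and 600 CPM in ALPs and Lmo2 is lower there than in LMPPs. Cd79a differs between the mice in ALPs, at 15.1 and 0.941 CPM.

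A further comparison set the ALPs against the mean of LMPPs and BLPs on the log2 scale. It finds genes off that midpoint, which may still lie between LMPPs and BLPs, as Colq did. Il7r was called against LMPPs, whose gate excludes it, but not against BLPs. It called 5 of 19903 genes (0.0251%), 4 higher (0.0201%) and 1 lower, with 1438 (7.23%) at an unadjusted p under 0.05 and 425 by DESeq2. Il7r (2.50 ± 0.24, edgeR adjusted p = 0.0237), Cnn3 (1.46 ± 0.13, edgeR adjusted p = 0.0219) and Colq (2.65 ± 0.22, edgeR adjusted p = 0.0210) were higher, as was the predicted gene Gm11579. In Cnn3, an actin-binding calponin, both ALP libraries (672 and 562 CPM) lay above LMPPs (99.2 and 103 CPM) and BLPs (479 and 523 CPM). Ifitm1, an interferon-induced membrane protein, was at 30.6 and 17.3 CPM in ALPs, below LMPPs (479 and 475 CPM) and BLPs (151 and 96.1 CPM), a change of -3.34 ± 0.34 (SE; edgeR adjusted p = 0.0273). With the mouse as a block 0 were called, with adjusted p of 0.231 for Il7r, 0.118 for Colq and 0.0997 for both Cnn3 and Ifitm1. Leaving out either control mouse also left 0, with 1628 genes at an unadjusted p under 0.05 without mouse 18218 and 785 without mouse 18220.

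Between cells, the genes that varied most for their level mixed cell cycle, dendritic and immune transcripts. The 12 that ranked first among 8319 genes in both mice were Serpina3g, Siglech, Mki67, Cenpa, Lgals1, Ube2c, Nfil3, Top2a, Itgb7, Pld3, Ccl3 and Ifi203. Siglech was read in 31 of 74 and 15 of 40 ALPs, with a median of 0 and maxima of 84 and 134 reads. Serpina3g, a protease inhibitor, was read in 13 and 5 cells with maxima of 67 and 180, and was read in 53.2% and 55.3% of LMPPs. Nfil3, a factor of innate lymphoid development, was read in 10 and 6 ALPs with maxima of 100 and 61.

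Mki67, Cenpa, Ube2c and Top2a belong to division. Summed over 24 genes of G2 and M phase, 20 of 74 (27.0%) and 7 of 40 (17.5%) ALPs held at least 100 reads, beside 6.38% and 8.51% of LMPPs and 23.5% and 11.4% of BLPs. All 24 of these genes had fitted changes above 0 in ALPs against LMPPs, with a median of 2.34, and against BLPs, with a median of 1.31, and 0 were called by edgeR. At an unadjusted p under 0.05, 13 passed against LMPPs and 5 against BLPs. Mki67 stood at 253 and 178 CPM in ALPs, 44.2 and 39.7 CPM in LMPPs and 256 and 79.8 CPM in BLPs.

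To see whether single ALPs mix lineages, 6 sets of 12 genes were summed in each cell after drawing it down to 50000 counts, and a cell with at least 5 reads of a set was called positive. The dendritic set was positive in 61 of 74 and 35 of 40 ALPs, 85.0% ± 3.58 (SD, n = 2). The B set was positive in 50 and 21 cells (60.0% ± 10.7), the T set in 40 and 19 (50.8% ± 4.63), and the natural killer and innate lymphoid set in 29 and 23 (48.3% ± 12.9). The myeloid set was positive in 65 and 25 cells (75.2% ± 17.9) and the erythroid and megakaryocyte set in 6 and 6 (11.6% ± 4.87).

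In both mice the dendritic share exceeded that in LMPPs, whose mean was 24.5%, and the myeloid share was below the LMPP mean of 97.9%. The B share lay between the means of 37.2% in LMPPs and 95.7% in BLPs. With 2 mice a side, a two-sided exact permutation test cannot go below p = 0.333, which all 6 sets gave against LMPPs. Against BLPs 4 sets gave the same value, and the innate lymphoid and erythroid sets gave an exact permutation p of 0.667.

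**Figure D3:**
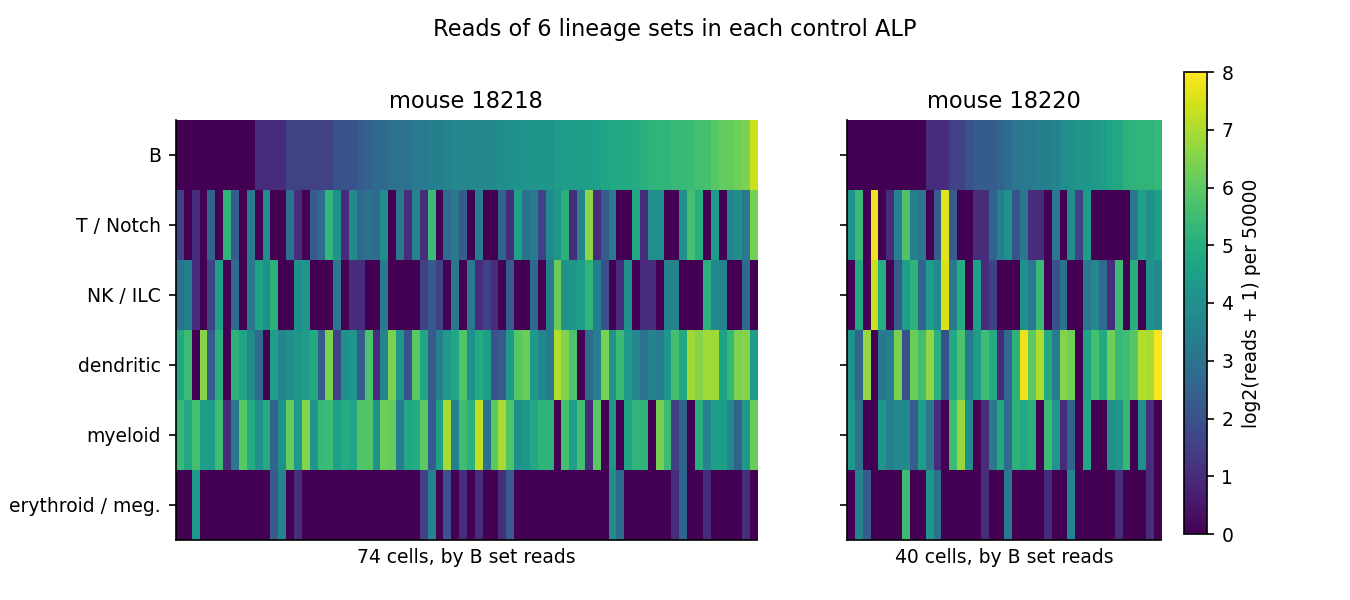
Reads of each lineage set in each control ALP, as log2(reads + 1) per 50000 counts, with cells in columns ordered by B set reads within each mouse. Dendritic and myeloid reads extend over cells with low and high B set reads, and 2 cells of mouse 18220 stand out in both the T and the innate lymphoid set.

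By this count nearly all ALPs mixed lineages. Of 114 cells, 110 were positive for at least 2 of 6 sets (73 of 74 and 37 of 40; 95.6% ± 4.35) and 94 for at least 3. No cell was positive for 0 or for all 6. With cells taken as independent draws this allows a share of up to 2.63%, a limit that leaves out the spread between mice. The mean was 80.9% in LMPPs (exact permutation p = 0.333) and 97.1% in BLPs (exact permutation p = 1). With the 4 lymphoid and dendritic sets only, 97 ALPs were positive for at least 2, 85.6% ± 2.63, against 42.6% of LMPPs and 97.1% of BLPs (exact permutation p = 0.333 for each).

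The calls rested on a few genes in each set. Blk and Cd79b gave 44.8% and 36.0% of B set reads in ALPs, Lat gave 48.6% of T set reads, Cox6a2 and Siglech 58.2% and 24.1% of dendritic reads, and Mpo and Lyz2 64.5% and 29.4% of myeloid reads. Il18r1, Klrd1 and Icos gave 30.0%, 21.3% and 19.0% of innate lymphoid reads. Cd79b and Lat were read in LMPPs too: Cd79b stood at 104 and 61.2 CPM in LMPPs beside 110 and 69.3 CPM in ALPs, and Lat at 70.4 and 90.2 CPM beside 130 and 84.1 CPM.

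Without 9 of the genes that gave many reads (Blk, Cd79b, Lat, Mpo, Lyz2, Cox6a2, Il18r1, Icos and Klrd1), which were chosen after the values were seen, fewer ALPs were positive for several sets. Positive for at least 2 sets were 42 ALPs (27 of 74 and 15 of 40; 37.0% ± 0.717), for 1 set 41, and for none 31. LMPPs then stood at 40.4% (exact permutation p = 1) and BLPs at 50.7% (exact permutation p = 0.333). With only the 4 lymphoid and dendritic sets the shares were 25.9% ± 2.25 of ALPs (29 cells), 3.19% of LMPPs and 47.9% of BLPs. The share of mixed cells thus depended on which genes the sets held.

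The removal was uneven between sets. It took Mpo and Lyz2, with 64.5% and 29.4% of myeloid reads in ALPs, but of the dendritic reads only the 58.2% of Cox6a2. Siglech, with 24.1%, was kept, so the shares that follow do not rank the sets. The dendritic set, led after the removal by Siglech and Ccr9, was positive in 47.3% and 45.0% of ALPs, beside means of 23.4% in LMPPs and 43.4% in BLPs. The B set was positive in 20.3% and 7.50% of ALPs, beside means of 1.06% in LMPPs and 78.3% in BLPs. The T set was positive in 20.3% and 15.0% of ALPs, beside means of 9.57% in LMPPs and 31.8% in BLPs. In ALPs the innate lymphoid set was positive in 6.76% and 17.5%, and the myeloid set in 14.9% and 10.0%, where 78.7% of LMPPs were positive for the myeloid set.

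**Figure D4:**
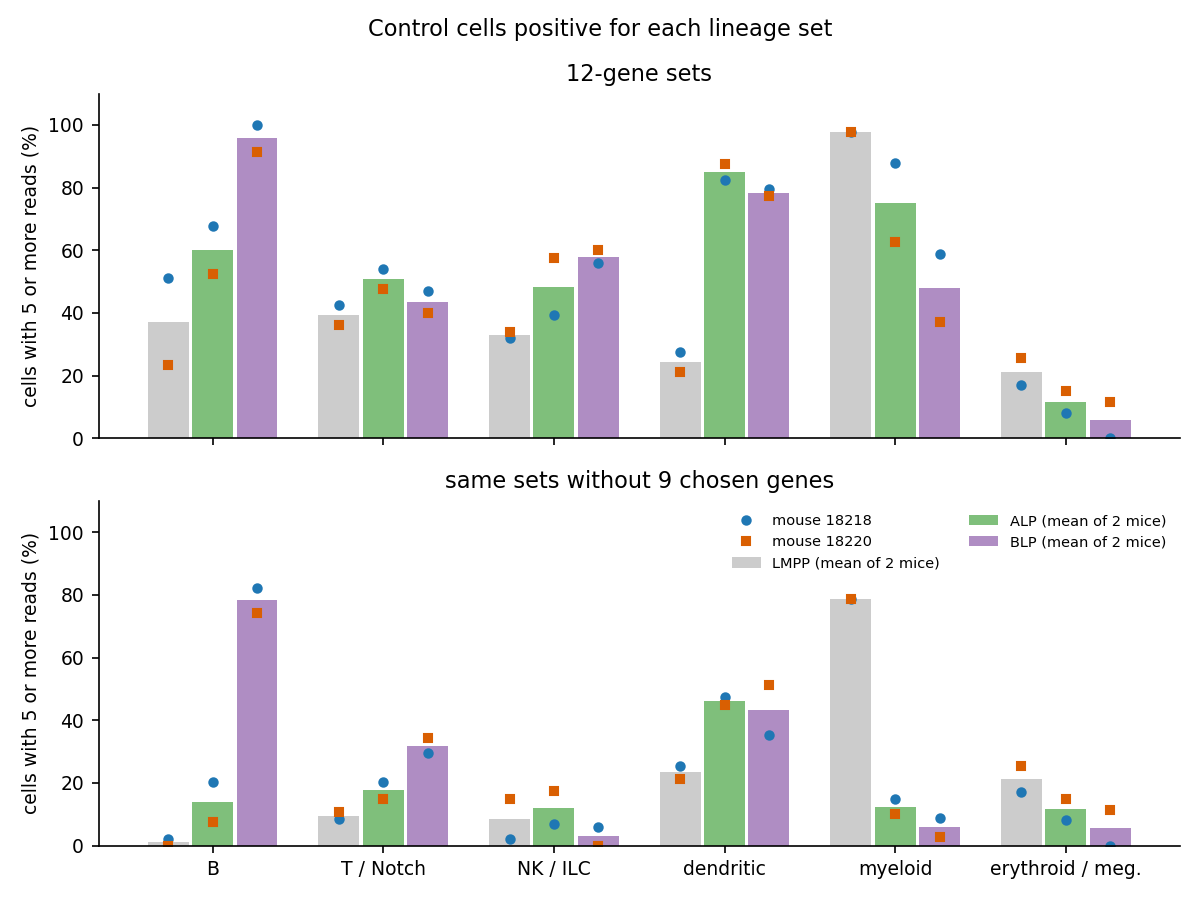
Percent of control cells positive for each lineage set (at least 5 reads per 50000 counts), with bars at the mean of 2 mice and points at each mouse. With all 12 genes (top) most ALPs are positive for the dendritic and myeloid sets. Without 9 chosen genes (bottom) the dendritic set is positive in 47.3% and 45.0% of ALPs and the B set in 20.3% and 7.50%.

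**Figure D5:**
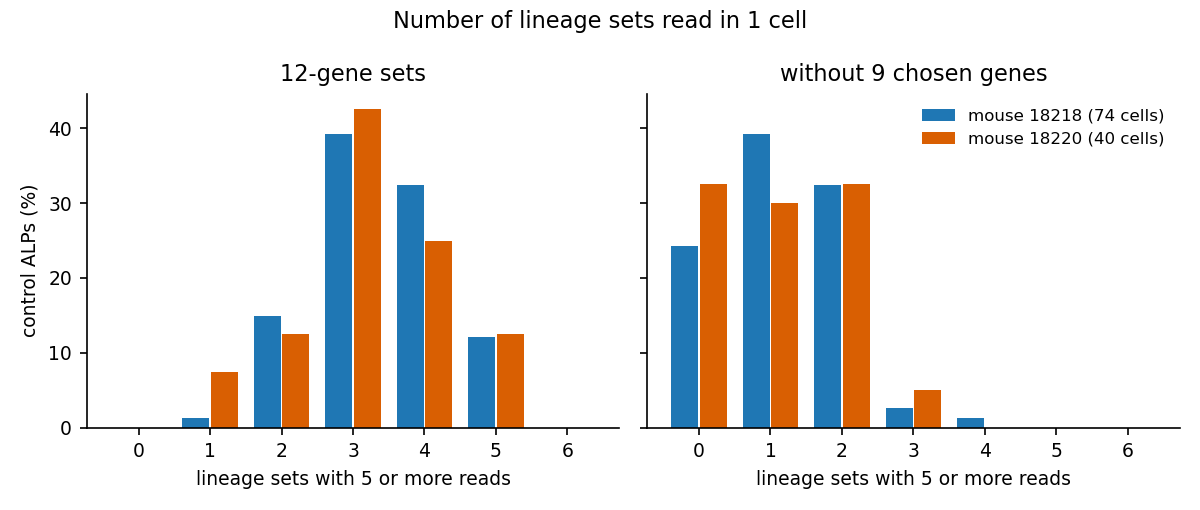
Percent of control ALPs, per mouse, against the number of lineage sets positive in 1 cell, with the 12-gene sets (left) and without 9 chosen genes (right). The most frequent number is 3 on the left, and most cells hold 0 to 2 on the right.

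Median depth by number of positive sets followed no common order in the mice. In mouse 18218 median depth was 1470902 counts for cells with up to 2 sets, 1599276 with 3 and 1724383 with more, and in mouse 18220 it was 1752441, 2041414 and 1305478 counts. Its part in the calls was not tested.

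Wells with over 50% spike-in were nearly empty but not free of these reads. The 7 of mouse 18218 held a median of 22999 nuclear counts, 1.45% of the depth of a kept ALP, and the 43 of mouse 18220 held 12543 counts, 0.737% of it. Their median reads are set here against those of kept ALPs scaled to the same depth. B set reads were 12 in such wells against 4.55 scaled in mouse 18218, and 5 against 1.10 in mouse 18220. T set reads were 14 against 1.99 and 6 against 0.936, so both lymphoid sets took a larger share of reads in these wells than in kept ALPs. Dendritic reads were 5 against 6.74 and 4 against 8.41, and those of Cox6a2 alone 2 against 4.33 and 2 against 4.53. Reads of Dntt were also fewer than scaled, at 117 against 183.5 and 41 against 84.5. Myeloid reads, at 7 against 10.5 and 6 against 2.19, and innate lymphoid reads, at 2 against 0.551 and 1 against 1.90, differed in direction between the mice. Those of Mpo alone were 3 against 6.08 in mouse 18218 and 3 against 0.372 in mouse 18220. Reads of Ebf1 were 2 against 0.0290 scaled in mouse 18218 and 1 against 0.0147 in mouse 18220. The median kept ALP held 2 reads of Ebf1 before scaling in each mouse. Most Ebf1 reads lay in a minority of kept ALPs, so the scaled median falls below the scaled mean. These medians therefore do not give the size of the difference in Ebf1. The part of such background in the calls of single ALPs, and in their reads of Ebf1, was not tested. No doublet caller was run on these sorted single wells, and 2 cells in 1 well were not tested for.

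Pairs of single genes were also counted, without any set. Ebf1 was read in 33 ALPs, and Cox6a2 was read in 30 of them, Mpo in 26 and Siglech in 18. Multiplying the shares of both genes gives 22.6 cells for Cox6a2 in mouse 18218, where 22 were seen, and 7.2 in mouse 18220, where 8 were. For Mpo it gives 21.3 and 5.2 cells, where 21 and 5 were seen. For Siglech it gives 10.5 and 3, where 16 and 2 were seen. The nearly empty wells also held reads of Ebf1, Cox6a2 and Mpo. At least 5 reads of Ebf1 were found in 11 cells, 10 of them of mouse 18218. Of the 11, 10 also held at least 5 of Cox6a2, 9 of Blk, 7 of Rag1, 7 of Mpo, 6 of Siglech and 4 of Cd79a. Over all 114 ALPs, 89 held at least 5 reads of Cox6a2, 75 of Mpo, 36 of Blk, 32 of Siglech, 17 of Rag1 and 5 of Cd79a. At the same limit, Cox6a2 and Mpo were together in 57 ALPs. Siglech and Mpo were together in 22 of the 32 ALPs with at least 5 reads of Siglech. These genes and pairs were chosen after the values were seen.

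Ebf1 reads went with reads of Rag1, Cd79a and Siglech in mouse 18218. There, 68.0% of Ebf1-read cells and 18.4% of the others had a read of Rag1, 48.0% against 4.08% had Cd79a, and 64.0% against 30.6% had Siglech. In mouse 18220, with 8 Ebf1-read cells, the shares were 25.0% against 31.2% for Rag1, 0% against 6.25% for Cd79a and 25.0% against 40.6% for Siglech. The pattern of mouse 18218 was thus not seen in mouse 18220.

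The shares of cells with Gata3 and Il18r1 were lower beside Ebf1 in each mouse. Gata3 was read in 1 of 25 Ebf1-read cells of mouse 18218 (4.00%), against 24.5% of the others, and in 0 of 8 of mouse 18220, against 28.1%. With cells taken as independent draws, 0 of 8 allows a share of up to 37.5% in that mouse alone. Il18r1 was read in 12.0% against 40.8% in mouse 18218 and in 12.5% against 43.8% in mouse 18220. Mki67 was read in 24.0% of Ebf1-read cells of mouse 18218 against 53.1% of the others, and in 25.0% against 28.1% in mouse 18220. Cox6a2 and Blnk were read about as often with Ebf1 as without it, Cox6a2 in 88.0% against 91.8% and 100% against 87.5%. These shares are descriptions of cells within a mouse, and no test was made over cells. Such shares count any drawn read of Ebf1, and the nearly empty wells also held reads of it.

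Single cells, picked after their values were seen, show what a mixed ALP held. The ALP with most Ebf1 in mouse 18218 had 16 reads of Ebf1, 12 of Rag1, 21 of Blk and 38 of Cd79b beside 38 of Cox6a2, 24 of Siglech, 22 of Ccr9 and 5 of Mpo, with 419 of Dntt and 97 of Flt3. The ALP with most Ebf1 in mouse 18220 had 31 reads of it beside 31 of Siglech, 66 of Irf8, 32 of Il18r1 and 870 of Dntt, and 0 of Mpo. A further cell of mouse 18218 had 49 reads of Cd79a, 100 of Blk and 14 of Ebf1 with 46 of Hes1 and 72 of Lyz2, and 1 of Flt3. That cell held 2513 genes after drawing down, against a median of 4978 in its mouse.

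Cells in mouse 18220 that stood apart held the T cell receptor complex. Just 2 of 114 ALPs had reads of Cd3d, Cd3e and Cd3g together, and both held at most 1 read of Flt3 and at most 3 of Dntt. One had 42 reads of Cd3e, 91 of Zbtb16, 127 of Id2, 115 of Nkg7, 37 of Bcl11b and 21 of Il7r. The other had 23 of Cd3e, 71 of Themis, 101 of Il2rb, 61 of Klrd1, 42 of Tcf7 and 0 of Il7r. Together they held 100% of the ALP reads of Cd3e, Cd3g and Themis after drawing down, 92.2% of those of Il2rb, 88.1% of Bcl11b and 67.9% of Zbtb16. The other 112 ALPs all had reads of Flt3 and Dntt, with medians of 48.5 and 437.5. Without the 2 cells the counts of called genes stayed at 54, 1 and 5, and 95.4% of ALPs were positive for at least 2 sets.

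Tcf7 and Flt3 were also read together. At least 5 reads of both Tcf7 and Flt3 were found in 4 cells, 2 in each mouse, all with 0 reads of Cd3e. In mouse 18218 one held 84 reads of Tcf7, 56 of Tox, 13 of Id2 and 16 of Il18r1, and the other 7 of Tcf7, 19 of Gata3 and 31 of Trbc2. These 2 held 17 and 3 reads of Dntt, below the median of 452 in that mouse, and 1 and 0 of Kit. In mouse 18220 one held 20 of Tcf7, 22 of Gata3, 28 of Zbtb16, 405 of Dntt and 13 of Kit, and the other 41 of Tcf7, 12 of Zbtb16, 132 of Dntt and 11 of Kit. Those of mouse 18220 also held 7 and 5 reads of Mpo, a myeloid transcript.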

How the data were processed

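Single cells were sorted into wells and sequenced by a Smart-seq2-type protocol without molecular identifiers, per the labels' protocols. The deposited counts per gene were, per the submitters' processing notes, made by the authors with GSNAP and HTSeq 0.5.3p3 on mm10. The release of the gene models, the strand setting and the read length were not given in the sources here, so reads of a gene and of its overlapping or antisense partner may be mixed. Symbols, lengths and coordinates came from a GRCm38 annotation, which named 45229 of 46078 identifiers. Of all entries 43.2% lay on genes, 6.13% on spike-ins and 50.7% in HTSeq's summary lines, which were left out.

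Kept cells were summed per mouse and population into 12 libraries (4 mice, 3 populations), including mitochondrial genes. edgeR 4.0.16 (R 4.3.3) was fitted to all 6 groups with filterByExpr, TMM scaling, the quasi-likelihood test and an adjusted p of 0.05, with 6 residual degrees of freedom. The same mouse gave all populations, which pairs the samples. Deviations of same-numbered control libraries correlated at 0.0495 to 0.0694. Alternatives were DESeq2 1.42.0, its size factors, no filter, all cells, thinned cells, control libraries only, a mouse block and each mouse left out. Shares were compared by two-sided exact permutation over mice (scipy 1.17.1).

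Members, markers and lists were chosen with earlier results of these data known. Named were the 6 markers and the gate genes; the 3 highest and all called members of each list; up to 8 genes a direction with the largest change in each comparison (called, at least 20 CPM, mice not overlapping, no predicted genes); the 10 highest per length and the 12 most variable. A few genes under this rule are not reported here. Other genes, pairs, single cells, the 9 genes left out of the sets, the 2 Cd3 cells left out and the 100-read limit for G2 and M phase were chosen after the values were seen. For the comparison with the mean of LMPPs and BLPs, not overlapping was set after seeing the data: ALPs against each mouse's geometric mean.

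The test was run on simulated counts for 19903 genes with 200 changed in the comparison of ALPs with LMPPs. With 1 spread common to all genes it recovered 0 of 200. A version with a spread per gene, added after that, recovered 18 of 50 genes 4-fold higher, 43 of 50 16-fold higher, 41 of 50 64-fold higher and 36 of 50 16-fold lower, with 2 false calls.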

Additional observations from a re-analysis of the deposited data

How the results depend on the processing

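Counts of called genes for ALPs against LMPPs, BLPs and the mean of both were 54, 1 and 5. They were 920, 595 and 425 with DESeq2, 179, 34 and 43 with no filter on low counts, 160, 12 and 11 with cells drawn down to equal counts, and 7, 0 and 0 with control libraries only. With the mouse as a replicate block they were 32, 1 and 0. Leaving out 1 control mouse gave 0 to 1, 0 to 0 and 0 to 0, where the lone library is assumed to vary like the other groups. Other scaling, all sorted cells and removal of the 2 Cd3 cells kept the counts within 1.5 times. Of the 31 named results none reversed. Calls were lost in 19 with the replicate block, 26 with control libraries only, 1 with drawn-down cells (Colq against the mean of both, edgeR adjusted p = 0.105), 30 without mouse 18218 and 31 without mouse 18220. The share of ALPs positive for at least 2 lineages, 95.6%, was 100% at 1 read, 87.1% at 10 reads, 73.6% with at least 2 genes of a set, 91.1% without Cox6a2 and 37.0% without the 9 chosen genes. It was 94.2% to 96.1% under a deeper draw, no draw, stricter limits on cells and a smaller B set, and 92.5% to 98.6% leaving out 1 mouse. The alternatives without the 9 genes and without the Cd3 cells were chosen after seeing the data.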

Other observations

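An axis from LMPP (0) to BLP (100) was built from 50 genes higher and 50 lower in BLPs of the Mbd3del/del mice, so that the control cells did not choose its genes. The axis and the genes kept out of it were chosen and revised after the data were seen, and the values are descriptions. Control ALPs had medians of 77.4 in mouse 18218 (21.5 to 105) and 79.4 in mouse 18220 (32.3 to 116). In mouse 18218, 5 of 74 ALPs lay below the highest LMPP (43.9) and 42 above the lowest BLP (73.2). In mouse 18220, 1 of 40 lay below the highest LMPP (38.1) and 24 above the lowest BLP (74.4). Median positions with and without a read of Siglech were 80.0 and 69.7 in mouse 18218 and 88.1 and 74.4 in mouse 18220. With and without a read of Ebf1 they were 80.0 and 71.8 in mouse 18218 and 78.0 and 80.4 in mouse 18220, so the order by Ebf1 differed between the mice.

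Some genes of cells outside the gate were read in ALPs. Sdc1, a surface proteoglycan of plasma cells that other cells also carry, stood at 105 and 219 CPM, and Mzb1, an endoplasmic reticulum protein of B and plasmacytoid dendritic cells, at 39.8 and 31.9 CPM against 2.20 and 0.999 CPM in LMPPs. Pecam1, an adhesion molecule of endothelium and blood progenitors, stood at 188 and 201 CPM. Levels of Sdc1 and Pecam1 in LMPPs were 77.6 and 87.0 CPM and 147 and 150 CPM.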
